A study of Mus musculus with 10 samples.

Results

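The club cell secretory genes described here are Scgb1a1, Scgb3a2, Scgb1c1, Cyp2f2, Cbr2, Hp and Chad, 7 genes chosen by symbol among the 47333 genes of the deposited count table. All 7 were found in the table and all 7 passed the filter on low counts. RNA was sequenced from the right middle lung lobe of 10 naïve C57BL/6J mice aged 12 weeks, 5 of them labelled KO for Bpifb1 and 5 WT. Bpifb1 encodes a secreted BPI fold protein of the airway lining. Males were KO replicate 1 and WT replicates 2 and 3, and the other 7 mice were females. Mice of both genotypes shared cages, none was treated, and the labels do not describe the KO allele. The comparison asked which genes of the lung change when Bpifb1 is lost.

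Club cells are secretory cells of the conducting airways. They release secretoglobins, small proteins secreted as dimers, into the airway lining fluid. They also hold cytochrome P450 enzymes and reductases that metabolise inhaled chemicals, and they can divide to renew the airway epithelium. Because a whole lobe was sequenced, a lower level of a club cell gene cannot be told apart from a smaller share of club cells in the piece.

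Between 21357424 and 28321294 counts were assigned to genes per mouse, and levels are given as CPM, the count of a gene relative to the scaled total of its library. Bpifb1 measured 0.217 to 1.26 CPM in the KO mice and 28.1 to 79.6 CPM in the WT mice, which fits the labels. KO replicate 5, labelled female, had 1.78 CPM of Xist, the RNA that silences an X chromosome, where the other 6 females had 274 to 407 CPM, and 0 counts of 4 Y-linked genes. Its label was kept, and the fold change, correlation and spread of Chad, which turned on this mouse, are also given without it. Nothing in the labels says how litters or sequencing runs were divided, so p-values measure the spread between these 10 mice.

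The start regions are shown because 5 genes followed Scgb1a1 from mouse to mouse, as described with the correlations. Many genes outside the 7 did so as closely. Scgb1a1, Scgb3a2 and Hp were not in the RefSeq promoter table (GRCm38.p6), and the other 4 of the 7 genes matched it by symbol. Those of Scgb1c1, which followed Scgb1a1, Cbr2, the gene with the lowest KO level relative to WT, and Chad, whose correlation with Scgb1a1 did not pass, are printed 5′ to 3′ up to the first base annotated as transcribed. Capitals mark the letters searched for on both strands: TGTTTAC and TGTTTGC for FOXA factors, TTGCNNAA for C/EBP factors, CTCAAG for NKX2-1 and TATAAA for the TATA box.
Scgb1c1, chr7:140845315-140845546, plus strand: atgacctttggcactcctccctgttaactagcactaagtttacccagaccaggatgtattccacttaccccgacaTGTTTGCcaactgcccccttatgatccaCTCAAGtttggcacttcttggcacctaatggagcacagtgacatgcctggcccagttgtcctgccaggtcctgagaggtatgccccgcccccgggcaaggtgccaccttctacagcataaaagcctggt
Cbr2, chr11:120732115-120732271, minus strand: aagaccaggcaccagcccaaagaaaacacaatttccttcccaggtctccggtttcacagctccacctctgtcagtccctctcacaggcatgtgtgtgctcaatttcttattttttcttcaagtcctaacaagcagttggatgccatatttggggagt
Chad, chr11:94564797-94565046, plus strand: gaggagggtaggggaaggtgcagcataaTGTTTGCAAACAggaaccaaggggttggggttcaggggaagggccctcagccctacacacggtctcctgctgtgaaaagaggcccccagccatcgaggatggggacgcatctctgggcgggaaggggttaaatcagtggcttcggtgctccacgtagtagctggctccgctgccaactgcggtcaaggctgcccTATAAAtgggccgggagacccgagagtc

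The search covered the 250 bases before the RefSeq start. That start lies 18 bases downstream of the first base annotated as transcribed by GENCODE in Scgb1c1, 93 in Cbr2, 46 in Cyp2f2 and 0 in Chad, so that the search ran past the printed sequences of Scgb1c1 and Cbr2. Positions count back from -1 at the last printed base. TGTTTGC was found in Scgb1c1, at -157 to -151, in Chad and in 4.3% of the 32851 regions of the table. In Chad the match on the plus strand, at -222 to -216, overlapped one on the minus strand at -217 to -211. CTCAAG was found in Scgb1c1 from -129 to -124 and in 13.3% of all regions. TATAAA was found in Chad from -28 to -23 and in 12.4% of all regions. TGTTTAC and TTGCNNAA, which 3.17% and 9.56% of all regions hold, were in 0 of the 4 genes. Cbr2 and Cyp2f2, which followed Scgb1a1, held none of the letters searched for. The regions of Scgb1a1, Scgb3a2 and Hp could not be searched. A match describes the letters and does not show that a factor binds.

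The levels of the 7 genes spanned more than 3 orders of magnitude, and they were ordered by CPM per kilobase of exon. Scgb1a1 stood first, with 48253 ± 4243 CPM per kilobase (SD, n = 10). Its level per kilobase was 14.9 times that of Cbr2, with 3248 ± 406 CPM per kilobase, and their ranges over mice did not overlap. Cyp2f2 followed with 1435 ± 157 CPM per kilobase, again with no overlap with Cbr2. Hp (589 ± 65.5 CPM per kilobase) and Scgb3a2 (554 ± 95.3 CPM per kilobase) overlapped in range, and their order is not resolved. A step of 25.7 times separated Scgb3a2 from Chad, with 21.6 ± 3.58 CPM per kilobase. Scgb1c1 was lowest with 16.4 ± 2.6 CPM per kilobase, and its range overlapped that of Chad.

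**Figure D1:**
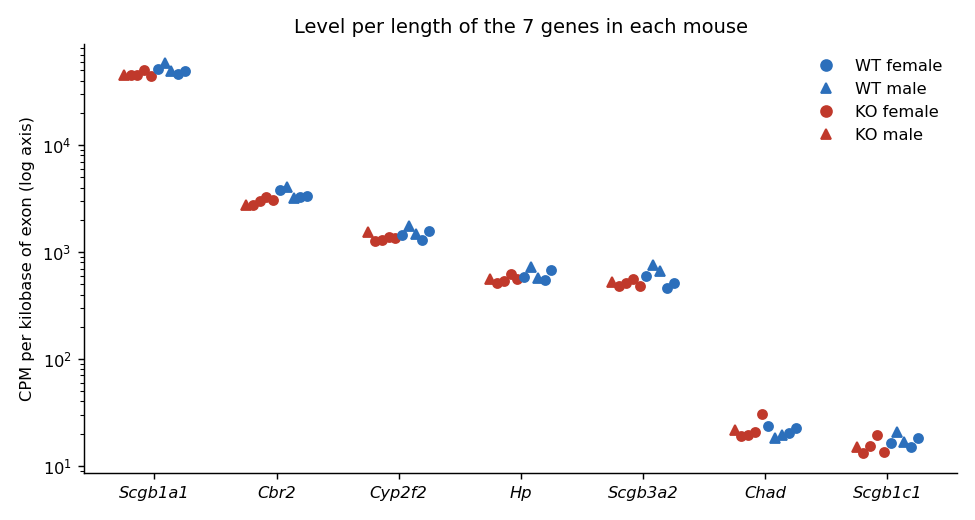
CPM per kilobase of exon (log axis) of each gene in each of the 10 mice, ordered by mean. Colours give the genotype and triangles the males. Scgb1a1 lies above all others, Hp and Scgb3a2 overlap, and Chad and Scgb1c1 overlap at the bottom.

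Together the 7 genes took 2.89% to 3.83% of the scaled counts, a total that includes 0 genes of mitochondrial DNA. Summed, they reached 29973 ± 1530 CPM among KO and 33350 ± 3117 CPM among WT mice (SD over 5 mice each), and the ranges of 28943 to 32684 and 30053 to 38286 CPM overlapped. Scgb1a1 supplied 71.7% to 74.1% of that sum in every mouse, so that the sum mostly follows Scgb1a1.

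With sex as a covariate, edgeR's quasi-likelihood test put 0 of the 7 genes under an adjusted p of 0.05 between KO and WT mice. Of all 18024 tested genes 4 passed (0.0222%), 3 of them lower in KO (0.0166%). The fitted levels in KO were lower than in WT for 6 of the 7 genes and higher for Chad, beside 50.7% of all tested genes lower in KO. Their median log2 fold change was -0.14 against -0.0027 over all tested genes. The 6 lower genes are Scgb1a1 and the 5 that followed it from mouse to mouse, so they are not 6 separate observations. At an unadjusted p under 0.05 stood 1 gene, Cbr2, beside 17% of all tested genes. In 0 of the 7 genes were the CPM ranges of the genotypes apart, which held for 1.88% of all tested genes. By the DESeq2 Wald test, too, 0 of the 7 passed, where 346 of 18019 tested genes did. The lowest of the 7 was Cbr2 (DESeq2 adjusted p 0.0715).

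**Figure D2:**
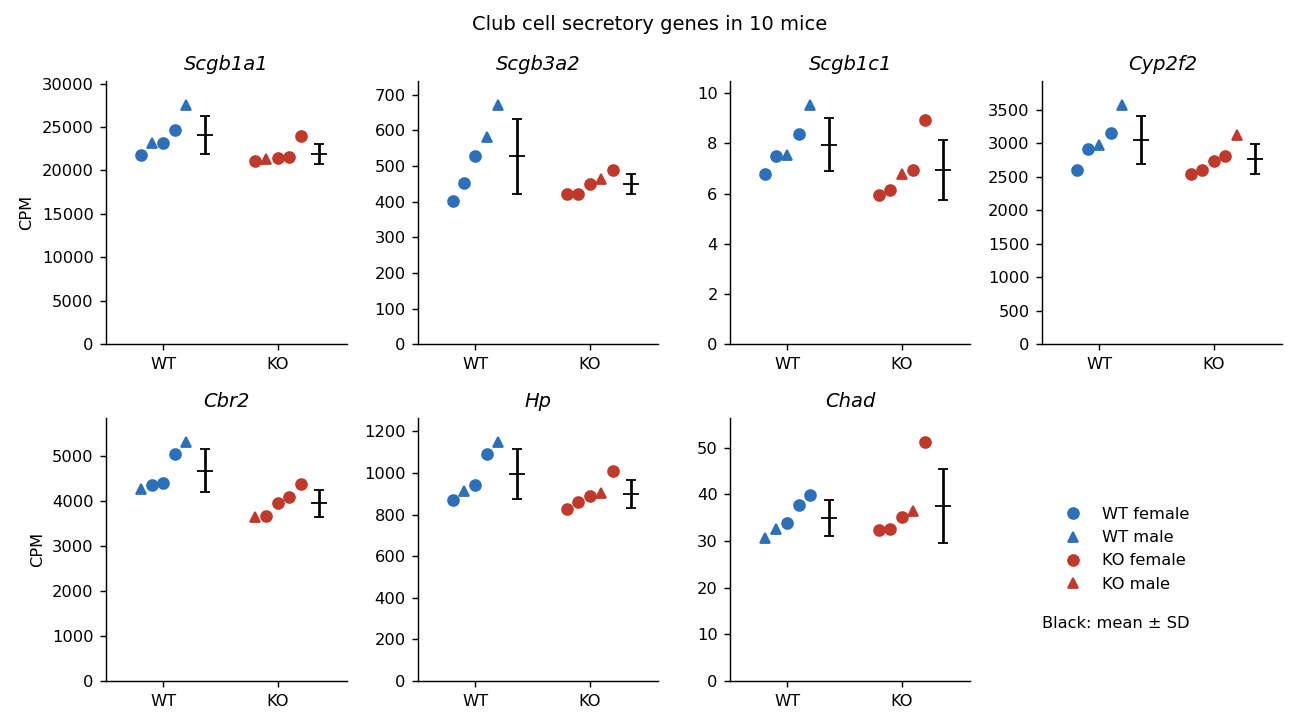
CPM of each gene in each mouse by genotype, from 0, with triangles for males and the mean ± SD in black. The genotypes overlap in all 7 panels, and KO replicate 5 is the one high point of Chad at 51.3 CPM.

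Scgb1a1 encodes the club cell secretory protein, the most abundant secreted product of these cells (ENSMUSG00000024653; GRCm38 chromosome 19, 9083636 to 9087958, minus strand). By mean CPM it ranked 3 among the tested genes, in a table that holds 0 genes of mitochondrial DNA. KO replicates 1 to 5 measured 21315, 21451, 21490, 23958 and 21139 CPM. WT replicates 1 to 5 measured 24653, 27533, 23167, 21783 and 23196 CPM. Of the 5 KO mice 4 lay below the lowest WT mouse, and KO replicate 4 lay above 3 of the WT mice. The fitted change in KO was -8.29% (log2 fold change -0.12, SE 0.08; adjusted p 0.432 by edgeR), with a 95% interval from -18.3% to 3.0%.

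Scgb3a2 encodes a second secretoglobin of the airways, also called UGRP1 (ENSMUSG00000038791; chromosome 18, 43764289 to 43767399, plus strand). In KO replicates 1 to 5 it measured 463, 422, 449, 488 and 421 CPM. In WT replicates 1 to 5 it measured 529, 671, 580, 402 and 453 CPM. The KO values sat close together, with a coefficient of variation of 6.36% against 20.0% in WT, and WT replicate 4 was the lowest of all 10 mice. Its log2 fold change was -0.16 (SE 0.09, edgeR adjusted p 0.403; 95% interval from -0.36 to 0.04).

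Scgb1c1 is a further secretoglobin, of low level in these lungs (ENSMUSG00000038801; chromosome 7, 140845547 to 140846769, plus strand). It had 149 to 242 counts per mouse, for which counting alone gives a coefficient of variation of 7.47%, against 15.9% measured. KO replicates 1 to 5 measured 6.77, 5.95, 6.93, 8.94 and 6.12 CPM and WT replicates 1 to 5 measured 7.49, 9.53, 7.55, 6.78 and 8.36 CPM. KO replicate 4 was the second highest of all mice, while 3 other KO mice lay below the lowest WT mouse. KO minus WT gave a log2 fold change of -0.18 (SE 0.13; adjusted p 0.491 by edgeR; 95% interval from -0.45 to 0.09). An antisense gene, C330022C24Rik, shares 85 exon bases with it and held 48 counts over all mice against 1794.

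Of the other 66 secretoglobin genes of the annotation, 64 had 0 counts in every mouse, where 3 counts would equal 0.106 to 0.14 CPM. Scgb3a1, a secretoglobin of airway secretory cells, was the 1 other that passed the filter. Its level was 105 ± 33.7 CPM in the 5 KO mice and 104 ± 32.9 CPM in the 5 WT mice (SD), with a log2 fold change of 0.0034 (SE 0.30; adjusted p 0.998 by edgeR). Its range over mice, 64.3 to 159 CPM, was wider relative to its mean than that of the 3 secretoglobins above.

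Cyp2f2 encodes a cytochrome P450 that activates naphthalene and makes mouse club cells sensitive to it (ENSMUSG00000052974; chromosome 7, 27119909 to 27133660, plus strand). KO replicates 1 to 5 measured 3130, 2548, 2608, 2815 and 2734 CPM. WT replicates 1 to 5 measured 2918, 3572, 2982, 2595 and 3153 CPM. KO replicate 1, the KO male, was the highest KO mouse, and WT replicates 1, 3 and 4 lay within the KO range. Fitted with sex, the log2 fold change was -0.10 (SE 0.07, edgeR adjusted p 0.504; 95% interval from -0.25 to 0.06). An antisense gene, Gm15883, overlaps 274 of its exon bases and held 8.32% to 10.2% as many counts as Cyp2f2 in each mouse. Whether counting used strand is not given in the sources used here, so the split between both genes is uncertain; with their counts added the log2 fold change was -0.0987.

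Cbr2 encodes a lung carbonyl reductase, an enzyme that reduces aldehydes and ketones (ENSMUSG00000025150; chromosome 11, 120729489 to 120732114, minus strand). KO replicates 1 to 5 measured 3648, 3656, 3956, 4372 and 4091 CPM. WT replicates 1 to 5 measured 5043, 5319, 4256, 4362 and 4395 CPM. Of the KO mice 4 lay below the lowest WT mouse, and KO replicate 4 was level with WT replicates 4 and 5. Cbr2 had the lowest KO level relative to WT of the 7 genes, with group means of 3945 ± 306 CPM for KO and 4675 ± 475 CPM for WT (SD over 5 mice each). The log2 fold change was -0.25 (SE 0.08, edgeR unadjusted p 0.00935, adjusted p 0.192; 95% interval from -0.43 to -0.07), and it did not pass. A second gene, Gm11771, shares 12.1% of the stretches of 50 bases in its transcripts and held 74 counts over all mice against 1037401.

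Hp encodes haptoglobin, the plasma protein that binds free haemoglobin, which is made in the lung as well as in the liver (ENSMUSG00000031722; chromosome 8, 109575128 to 109579172, minus strand). KO replicates 1 to 5 measured 902, 828, 861, 1008 and 891 CPM. WT replicates 1 to 5 measured 944, 1151, 915, 871 and 1092 CPM. KO replicate 4 again stood highest among the KO mice, and 2 KO mice lay below the lowest WT mouse. Its log2 fold change was -0.13 (SE 0.08, edgeR adjusted p 0.429; 95% interval from -0.32 to 0.05).

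Chad encodes chondroadherin, a leucine-rich repeat protein known from cartilage matrix (ENSMUSG00000039084; chromosome 11, 94565047 to 94569127, plus strand). KO replicates 1 to 5 measured 36.5, 32.3, 32.5, 35.1 and 51.3 CPM. WT replicates 1 to 5 measured 39.9, 30.7, 32.5, 33.9 and 37.7 CPM. KO replicate 5 lay above all 9 other mice, and the remaining KO mice lay within the WT range. The log2 fold change was 0.08 (SE 0.13, edgeR adjusted p 0.805; 95% interval from -0.20 to 0.35), and without KO replicate 5 it was -0.05 (adjusted p 0.824). Of 13 cartilage markers 6 had a mean under 0.14 CPM, Acan and Matn1 among them, and their summed level was 5.73 to 10.9 CPM in KO and 4.65 to 9.04 CPM in WT mice.

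**Figure D3:**
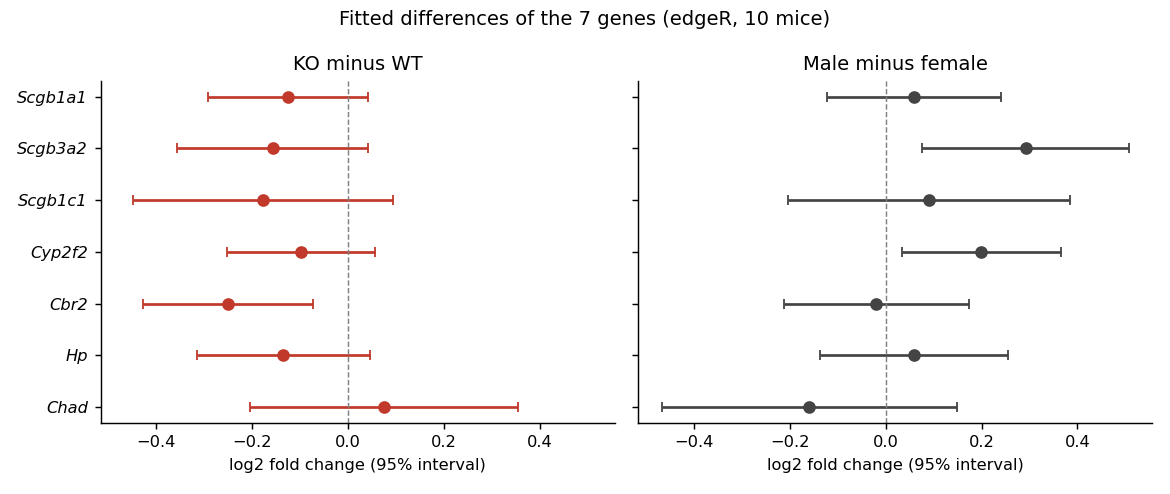
Fitted log2 fold changes of the 7 genes with 95% intervals, KO minus WT on the left and male minus female on the right. Without adjustment, the interval of Cbr2 lies below 0 for genotype, and those of Scgb3a2 and Cyp2f2 lie above 0 for sex.

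Of the 22 other club cell genes 22 were tested, and 0 passed in either direction. At an unadjusted p under 0.05 stood 6, all lower in KO, beside 8.04% of all tested genes lower in KO at that level, and their median log2 fold change was -0.09. Gsta3, a glutathione transferase, averaged 130 ± 14.9 CPM among KO and 160 ± 18.7 CPM among WT mice (SD over 5; log2 fold change -0.24; adjusted p 0.135 by edgeR). Aldh1a1, a retinaldehyde dehydrogenase, measured 946 ± 98.0 and 1130 ± 174 CPM (log2 fold change -0.19, edgeR adjusted p 0.17). Cyp2b10, a cytochrome P450, measured 305 ± 25.1 and 356 ± 46.3 CPM (log2 fold change -0.18, edgeR adjusted p 0.221). The summed level of the list was 5020 to 5980 CPM in KO and 5510 to 6360 CPM in WT mice, with overlap.

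The enzymes that work beside Cyp2f2 and Cbr2 had similar values. Of 22 xenobiotic oxidation genes, 8 of which are also on the club cell list, 21 were tested and 0 passed. An unadjusted p under 0.05 was found for 4, all lower in KO (median log2 fold change -0.08). Aldh1a1 and Cyp2b10, already counted with the club cell genes, are among these 4. Over all tested genes, 17% reached that level in either direction, and 8.04% were lower in KO at that level. Por, the reductase that passes electrons to cytochromes P450, averaged 432 ± 26.6 CPM among KO and 471 ± 40.3 CPM among WT mice (log2 fold change -0.15, edgeR adjusted p 0.239). Of 15 carbonyl and related reductases 15 were tested and 0 passed. Beside the same 8.04% of all tested genes, 4 had an unadjusted p under 0.05, all lower in KO (median log2 fold change -0.12). For Dcxr, a reductase of dicarbonyls and xylulose, the fold change was -0.20 on the log2 scale (edgeR adjusted p 0.219), for Akr1b3, an aldose reductase, -0.14 (adjusted p 0.225) and for Dhrs1 -0.12 (adjusted p 0.276).

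Among genes related to Hp and Chad 0 passed. Of 23 haemoglobin binding and acute phase genes 19 were tested. An unadjusted p under 0.05 was found for 2, both lower in KO (median log2 fold change 0.0016). Over all tested genes, 8.04% were lower in KO at that level. Serpina3g, a serine protease inhibitor, measured 6.32 to 8.51 CPM in KO and 8.71 to 12.7 CPM in WT mice, ranges that did not overlap (log2 fold change -0.61; adjusted p 0.0919 by edgeR). Fga, a fibrinogen chain, was near the limit of detection, with 0.343 ± 0.138 and 0.534 ± 0.106 CPM (SD over 5 mice; edgeR adjusted p 0.245). Of 15 small leucine-rich repeat matrix genes 13 were tested. An unadjusted p under 0.05 was found for 2, both higher in KO (median log2 fold change 0.02). Over all tested genes, 17% reached that level in either direction. Ecm2, whose genotype ranges did not overlap, had a log2 fold change of 0.21 (edgeR adjusted p 0.231) and Fmod, fibromodulin, one of 0.37 (edgeR adjusted p 0.245).

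Transcription factors and Notch pathway genes of airway secretory cells were examined because Notch signals steer airway progenitors to the secretory fate. A whole lobe was sequenced, and which of its cells the RNA of these genes came from was not tested. Of 26 genes 25 were tested and 0 passed. An unadjusted p under 0.05 was found for 7, beside 17% of all tested genes in either direction. Of these 7 genes, 5 were higher and 2 lower in KO, and the list had a median log2 fold change of 0.10. Jag1, a Notch ligand, averaged 51.4 ± 3.77 CPM among KO and 44.3 ± 6.63 CPM among WT mice (log2 fold change 0.27; adjusted p 0.135 by edgeR). The ligand Dll1 differed by 0.52 on the log2 scale (SE 0.15; adjusted p 0.17 by edgeR) and the receptor Notch1 by 0.33 (SE 0.10; adjusted p 0.171 by edgeR). Hes1, a target of Notch, and Foxa2, a forkhead factor of airway cells, are the 2 lower genes, named after their values were seen, with log2 fold changes of -0.37 (edgeR adjusted p 0.184) and -0.19 (edgeR adjusted p 0.221). Nkx2-1, the lung lineage factor, named on the same terms, measured 203 CPM on average with a log2 fold change of 0.05 (edgeR adjusted p 0.7).

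**Figure D4:**
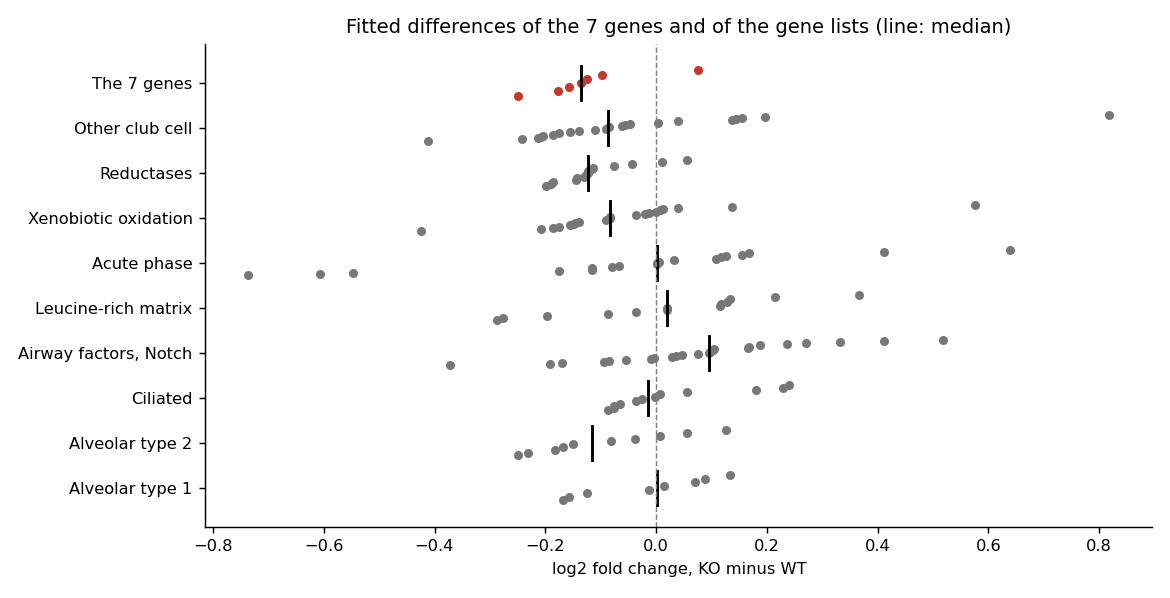
Fitted log2 fold changes, KO minus WT, of the 7 genes (red) and of the tested genes of 9 lists (grey), with the median of each as a line. The medians run from -0.14 for the 7 genes to 0.10 for the airway factors and Notch genes.

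Markers of other cells were measured beside these values. The 12 ciliated cell markers, which mark the same airways, summed to 695 to 822 CPM in KO and 694 to 792 CPM in WT mice. Their median log2 fold change was -0.01. Of the 12, 2 had an unadjusted p under 0.05, both higher in KO, beside 17% of all tested genes in either direction. These were Foxj1 (log2 fold change 0.23, edgeR adjusted p 0.151) and Dnah5 (0.24, adjusted p 0.226). The 10 alveolar type 2 markers summed to 25000 to 28600 CPM in KO and 26000 to 30800 CPM in WT mice. Their median log2 fold change was -0.12, beside -0.14 for the 7 genes. An unadjusted p under 0.05 was found for 5 of them, all lower in KO, beside 8.04% of all tested genes lower in KO. Among them were Napsa (log2 fold change -0.25, edgeR adjusted p 0.109), Sftpa1 (-0.23, adjusted p 0.158) and Etv5 (-0.15, adjusted p 0.235). The 8 alveolar type 1 markers had a median log2 fold change of 0.00099, with Hopx at -0.16 (edgeR adjusted p 0.221). The part of alveolar cell content in the values of the 7 genes was not tested.

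Hp is also a gene of neutrophils, fat and liver, and secretoglobins are also made in nasal glands, so markers of these were measured too. Of 11 neutrophil markers 8 were tested, and Mpo and Ly6g had a mean under 0.14 CPM. An unadjusted p under 0.05 was found for 0 of the 8, beside 17% of all tested genes (Retnlg, log2 fold change 0.24, edgeR adjusted p 0.356). The list had a median log2 fold change of -0.03 and sums of 89.2 to 123 CPM in KO and 80.1 to 122 CPM in WT mice. The 8 adipocyte markers summed to 197 to 406 and 172 to 454 CPM (Lipe, log2 fold change -0.28, edgeR adjusted p 0.35). Their median log2 fold change was -0.05. Of 9 liver cell markers 5 had a mean under 0.14 CPM, Apoa1, Apoa2 and Ttr among them, and Alb averaged 0.781 ± 0.251 CPM among KO and 1.24 ± 0.273 CPM among WT mice (edgeR adjusted p 0.225). The list still summed to 540 to 589 CPM in KO and 559 to 631 CPM in WT mice, nearly all from its remaining members. The 4 tested had a median log2 fold change of -0.19. Of 11 olfactory and nasal gland markers 5 had 0 counts in every mouse, Obp1a among them, and Cnga2 was the 1 tested (edgeR adjusted p 0.953).

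The remaining marker lists summed as follows. The 9 goblet and gland markers, which include Bpifb1 itself, summed to 75.3 to 197 CPM in KO and 123 to 176 CPM in WT mice. The median log2 fold change of the 8 tested was 0.13. Clca1, a product of mucous cells, measured 0.883 to 24.2 CPM in KO and 0.321 to 1.69 CPM in WT mice (log2 fold change 2.45, edgeR adjusted p 0.284). Basal cell markers summed to 4.09 to 6.48 and 3.86 to 6.75 CPM (Dapl1, edgeR adjusted p 0.518). The 4 tested had a median log2 fold change of -0.11. Neuroendocrine markers summed to 10.5 to 12.1 and 10.4 to 13.0 CPM with a median log2 fold change of 0.05 (Uchl1, -0.32, edgeR adjusted p 0.247). Macrophage markers summed to 620 to 849 and 735 to 898 CPM (Ear1, log2 fold change -0.24, edgeR adjusted p 0.205). Their median log2 fold change was -0.15, so a median as low as that of the 7 genes was not particular to them. Red cell markers summed to 12700 to 14100 and 11500 to 19500 CPM (Hbb-bs, log2 fold change -0.07, edgeR adjusted p 0.793), and Hapln1 of the cartilage list had an edgeR adjusted p of 0.411. Median log2 fold changes were 0.0066 for the red cell markers and 0.13 for the 4 cartilage markers tested.

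From mouse to mouse, the levels of 5 of the other 6 genes followed that of Scgb1a1 by Pearson's r over the 10 mice. Cbr2 followed it most closely (r 0.893, permutation p 2.5e-04, adjusted over 12 tests 0.003; rho 0.903, adjusted permutation p 0.00348). Scgb3a2 had an r of 0.867 (adjusted permutation p 0.00576; rho 0.709, adjusted permutation p 0.0367), Scgb1c1 one of 0.864 (adjusted permutation p 0.00348; rho 0.879, adjusted permutation p 0.00438) and Hp one of 0.828 (adjusted permutation p 0.00716; rho 0.77, adjusted permutation p 0.0216). Cyp2f2 had an r of 0.73 (adjusted permutation p 0.0238), but its rho of 0.503 did not pass (adjusted permutation p 0.174). For Chad the relation was negative and did not pass (r -0.318, adjusted permutation p 0.386; rho -0.2, adjusted permutation p 0.585). Without KO replicate 5 the r of Chad was -0.0761 and its rho 0.1, and without WT replicate 2 they were -0.0634 and 0.1, so that its rho turned positive without either mouse. All genes of a mouse share its library, its scaling and its piece of lung.

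These relations rested in part on 2 mice, WT replicates 2 and 1, which lay farthest from the median of Scgb1a1. Without them r was 0.925 for Scgb1c1 (adjusted permutation p 0.0158, exact), which still passed. It was 0.7 for Cbr2, 0.626 for Scgb3a2, 0.766 for Hp and 0.419 for Cyp2f2, with adjusted exact permutation p of 0.129, 0.166, 0.0737 and 0.4. With the genotype means subtracted r was 0.839 for Cbr2, 0.824 for Scgb3a2, 0.824 for Scgb1c1 and 0.767 for Hp, and these passed (adjusted permutation p from 0.0113 to 0.0247), whereas Cyp2f2 did not (r 0.64, adjusted permutation p 0.0901). By rho only Cbr2 passed on that scale (0.745, adjusted permutation p 0.0413), and the other 5 had adjusted p from 0.118 to 0.487.

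**Figure D5:**
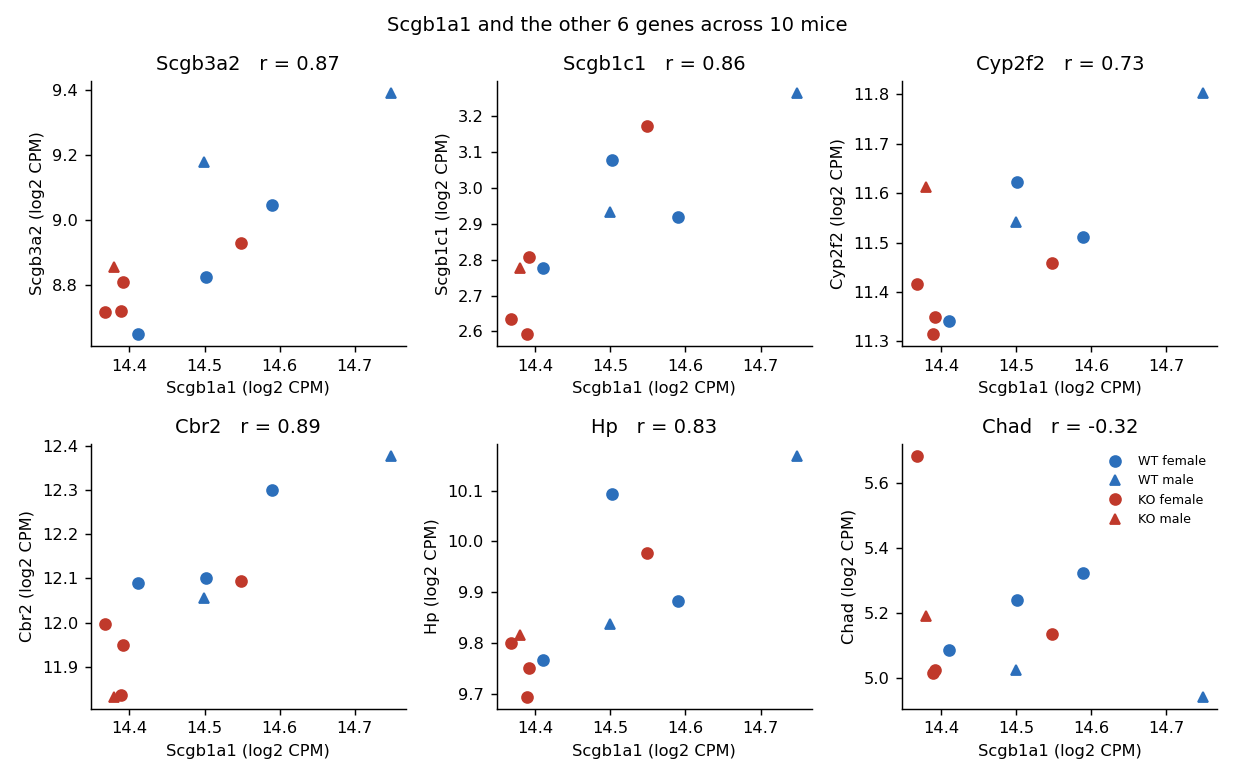
Log2 CPM of each of the other 6 genes against that of Scgb1a1, 1 point per mouse, with Pearson's r above each panel. WT replicate 2, a male, is the rightmost point in every panel, and Chad alone has a negative r.

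Among 16274 other genes whose CPM averaged 1 or more, those most like Scgb1a1 over the 10 mice were Slc35b1 (r 0.952), AU021092 (0.949), Mrps35 (0.945), Ciao1 (0.943) and Derl1 (0.94). Slc35b1 and Derl1 encode membrane proteins of the endoplasmic reticulum, and Mrps35 a protein of the mitochondrial ribosome. Those most like the mean of all 7 genes were Tst (r 0.934), Trib3 (0.933), Gm10698 (0.928), Lrrc42 (0.927) and Mtg2 (0.926). These are the highest of many values and are given as a description.

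The genes were also set relative to Scgb1a1 in the same mouse, a measure that scaling between libraries cannot change. The level of Cbr2 was 17.1%, 17.0%, 18.4%, 18.2% and 19.4% of that of Scgb1a1 in CPM in KO replicates 1 to 5 and 20.5%, 19.3%, 18.4%, 20.0% and 18.9% in WT replicates 1 to 5. The highest KO ratio lay above 3 of the WT ratios, and KO minus WT averaged -0.11 on the log2 scale (exact permutation p 0.0635, adjusted over 6 ratios 0.381). For the ratios of the other 5 genes the adjusted exact permutation p ran from 0.714 to 0.968. The smallest p that 252 splits allow is 0.00794, and this test was chosen after the values were seen.

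The labels also gave the sex of each mouse. By the same edgeR model 0 of the 7 genes passed between males and females, where 105 of 18024 tested genes did (0.583%). Male and female CPM ranges were apart in 0 of the 7, and in 4.81% of all tested genes. At an unadjusted p under 0.05 stood Scgb3a2 and Cyp2f2, both higher in males, beside 7.34% of all tested genes higher in males at that level. By the DESeq2 Wald test, too, 0 of the 7 passed, where 436 of 18019 tested genes did. The lowest of the 7 was Scgb3a2 (DESeq2 adjusted p 0.0905).

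Scgb3a2 measured 463 CPM in the KO male and 671 and 580 CPM in the WT males, against 402 to 529 CPM (median 449) in the 7 females. The WT males were the highest of the 10 mice, and the KO male lay within the female range. The log2 fold change was 0.29 (SE 0.10, edgeR adjusted p 0.194), an increase of 22.4% with a 95% interval from 5.40% to 42.2%. Without the KO male it was 0.44, and without WT replicate 2 it was 0.19. Relative to Scgb1a1 in the same mouse, Scgb3a2 was 2.17%, 2.44% and 2.50% in the males and 1.84% to 2.15% in the females, with no overlap. Males were higher in this ratio by 0.24 on the log2 scale (exact permutation p 0.00833, the smallest that 120 splits allow), and adjusted over the 6 ratios the p was 0.05, which is at the threshold and not under it.

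Cyp2f2 measured 3130 CPM in the KO male and 3572 and 2982 CPM in the WT males, against 2548 to 3153 CPM (median 2734) in the females. Its log2 fold change was 0.20 (SE 0.08, edgeR adjusted p 0.248), and that of its ratio to Scgb1a1 was 0.14 (exact permutation p 0.0417, adjusted 0.125). For Scgb1a1, Scgb1c1, Cbr2, Hp and Chad the log2 fold changes between males and females lay between -0.16 and 0.09 (adjusted p from 0.638 to 0.943). The term for a genotype difference that depends on sex, which rests on the 1 KO male, passed in 0 of the 7 genes, where 2 of 18024 did (0.0111%). At an unadjusted p under 0.05 it stood in 0 of the 7, beside 6.65% of all tested genes, and the lowest was that of Scgb3a2 (log2 difference -0.38, SE 0.18, edgeR unadjusted p 0.0554, adjusted p 0.76).

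Of the 22 other club cell genes 1 passed between the sexes. It was Aldh1a1, which rose from 952 ± 71.7 CPM over 7 females to 1250 ± 133 CPM over 3 males with no overlap (SD; log2 fold change 0.34; adjusted p 0.024 by edgeR). At an unadjusted p under 0.05 stood 9 of the 22, all higher in males, beside 7.34% of all tested genes higher in males. The list had a median log2 fold change of 0.16 against -0.00645 over all tested genes. Among the airway factors Klf5 passed, with 41.3 ± 2.94 CPM over males and 32.9 ± 1.80 CPM over females (log2 fold change 0.35, edgeR adjusted p 0.0202). Lcn2, the iron-binding lipocalin of the acute phase list, fell from 144 ± 15.2 CPM in females to 108 ± 8.01 CPM in males (log2 fold change -0.44, edgeR adjusted p 0.0319). Rtkn2, an alveolar type 1 marker, also passed, with 284 ± 7.93 CPM over males and 230 ± 13.0 CPM over females and no overlap (log2 fold change 0.33, edgeR adjusted p 0.0197). Without KO replicate 1, the KO male, 0 of 18132 tested genes passed between the sexes by edgeR, so these 4 calls are lost (1919 genes had an unadjusted p under 0.05). Ddx3y, Kdm5d, Uty and Eif2s3y, which are Y-linked, are not among the tested genes, since the filter on low counts asks for a gene in more mice than the males. The 5 red cell markers were all higher in males at an unadjusted p under 0.05, and 0 of them passed. The part of red cell and alveolar cell content in these differences was not tested.

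The genes also differed in how steady they were. The SD of log2 CPM within a genotype was 0.105 for Scgb1a1 and 0.129 for Cbr2, against a median of 0.115 over 12877 tested genes whose CPM averaged 5 or more. It was 0.145 for Cyp2f2, 0.143 for Hp, 0.208 for Scgb1c1, 0.215 for Scgb3a2 and 0.223 for Chad. Scgb1c1 was more variable than 89.2%, Scgb3a2 than 90.2% and Chad than 91.3% of those genes. Without KO replicate 5 the SD of Chad was 0.13, larger than that of 60.1% of genes. That of Scgb1c1 was 0.156 without KO replicate 4, larger than that of 73.4% of genes. For Scgb3a2 it was 0.17 without WT replicate 4 (79.3%) and 0.168 without WT replicate 2 (80.5%). Sex was not subtracted, so any difference between males and females is part of this spread. For Scgb3a2 counting alone gives a coefficient of variation of 0.924%, against 17.2% measured over the 10 mice. The source of its spread was not tested.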

How the data were processed

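Per the labels, stranded mRNA libraries were read as single reads of 50 bases. The authors deposited 1 table of estimated counts per gene, not scaled between samples. STAR 2.6.0, Salmon 0.9.1 and GRCm38 are named in the submitters' processing notes; the annotation, filters and strand setting are not given in the sources used here. Values were rounded, since 30.1% of those above 0 were not whole (tolerance 0.01). Identifiers were matched to GENCODE M21 (GRCm38), which failed for 52 (0.00668% of counts).

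Totals were 21357424 to 28321294, and 3 counts equal 0.106 to 0.14 CPM; such limits cover counting error only. Genes were kept by filterByExpr (minimum count 10, minimum total 15; 18024 genes) and tested with edgeR 4.0.16 in R 4.3.3 (TMM, robust quasi-likelihood, genotype plus sex, Benjamini-Hochberg, called at an adjusted p under 0.05, two-sided). Log2 CPM uses a prior count of 2, and correlations 100000 permutations. Alternatives used DESeq2 1.42.0 and limma 3.58.1. The tests were tried on simulated counts.

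The 7 genes and the lists were chosen with earlier results of these data known. Text names the 7 genes, Bpifb1 and Xist, from each list up to 3 genes with an unadjusted p under 0.05 or else the lowest, secretoglobins that passed the filter, and the 5 genes most like Scgb1a1 or the mean of the 7. Sex values of list genes follow the same limit and were chosen after seeing the data, as were the ratios, the interaction term and the addition of overlapping genes.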

Additional observations from a re-analysis of the deposited data

Results flagged for a closer look

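For each of the 7 genes, the KO mice, the WT mice and the females were searched by Dixon's ratio for a mouse standing apart. It was found in 3 of 21 sets, where chance gives about 1.05. The sets share mice, and the value of Chad in KO replicate 5 was found both among KO mice and among females. The 3 are therefore not separate results. KO replicate 4 had 23958 CPM of Scgb1a1, while the remaining KO mice had 21139 to 21490 CPM. KO replicate 5 had 51.3 CPM of Chad, while the remaining KO mice had 32.3 to 36.5 CPM and the remaining females 32.3 to 39.9 CPM. KO replicate 5 is the mouse labelled female with 1.78 CPM of Xist.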

How the results depend on the processing

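Over 19 alternatives 0 of the 7 genes passed between KO and WT, and over 18 between the sexes. The log2 fold changes of Cbr2 (-0.29 to -0.20, adjusted p from 0.0715 to 0.46), Scgb1a1 (-0.16 to -0.08), Scgb3a2 (-0.24 to -0.05), Scgb1c1 (-0.28 to -0.12), Cyp2f2 (-0.14 to -0.05) and Hp (-0.19 to -0.08) kept their sign in all of these. Without single mice that of Chad ran from -0.046 to 0.13, and reversed without KO replicate 5. Between the sexes, without single mice, that of Scgb3a2 ran from 0.19 to 0.44, of Cyp2f2 from 0.14 to 0.27, of Cbr2 from -0.12 to 0.058, of Scgb1a1 from -0.023 to 0.13, of Scgb1c1 from -0.020 to 0.17 and of Hp from -0.035 to 0.13; that of Cbr2 was 0.047 with no genotype covariate. Ratios to Scgb1a1 changed sign without single mice for Cyp2f2 (KO minus WT -0.053 to 0.028, and -0.0070 without KO replicate 5) and Hp (KO minus WT -0.033 to 0.041; male minus female -0.0165 to 0.0356).

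The 4 genes called between KO and WT became 346 with DESeq2, 57 with the threshold at 0.1, 50 with no filter on low counts and 2 with limma-voom. Without single mice they were 2 to 18, with 18 without WT replicate 3 and 2 without WT replicate 1 or KO replicate 2, 4 or 5. The 105 between the sexes became 436, 351 and 197 in the first 3 of these, 41 with no genotype covariate, and 0 to 195 without single mice; edgeR gave 0 without KO replicate 1 (1919 had an unadjusted p under 0.05), 46 without KO replicate 2, 43 without WT replicate 2 and 195 without WT replicate 4. For these shifts the cause was not tested.

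In the 7 females alone, with fewer mice, no correlation with Scgb1a1 passed: r was 0.89 for Scgb3a2, 0.8 for Scgb1c1, 0.694 for Cyp2f2, 0.82 for Cbr2 and 0.698 for Hp. Leaving out the 2 mice farthest from its median gave 0.626 for Scgb3a2, 0.419 for Cyp2f2, 0.7 for Cbr2 and 0.766 for Hp, and Chad had -0.0147 in the females. Cyp2f2 had 0.64 with genotype means subtracted. Without single mice r ran from 0.704 to 0.928 for Scgb3a2, 0.42 to 0.877 for Cyp2f2 and 0.667 to 0.919 for Hp, and Chad had -0.431 to -0.0634; the first 3 named no longer passed without WT replicate 2.

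Counting error was 7.47% of the level for Scgb1c1 and 3.37% or less for the other 6 genes. No paired analysis was possible because the labels give no replicate numbers that mice of both genotypes share. The numbers used here follow the order of the samples within each genotype and pair no KO mouse with a WT mouse. The cage of a mouse entered none of the tests.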

Other observations

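Gm15883, the antisense gene that overlaps Cyp2f2, measured 249 to 351 CPM over the 10 mice. Its highest value was in WT replicate 2, the mouse with the highest Cyp2f2, and the lowest share of Cyp2f2 counts, 8.32%, was in KO replicate 1.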
